A study of Homo sapiens with 4 samples.

Results

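A set of 40 genes of mitosis, the kinetochore and the spindle was followed in polyadenylated RNA from 4 libraries, 2 of wild-type cells and 2 of TXNDC9 knockout cells, both labelled HepG2. The genes were listed by function, namely kinases and cyclins of mitotic entry, the spindle checkpoint, centromere proteins, the chromosomal passenger complex, spindle motors, cytokinesis factors and a few proliferation genes, and all 40 were found by symbol, each on 1 line, among 57979 lines with values. HepG2 is a human liver cancer cell line, and all cells were grown in DMEM with fetal bovine serum. The knockout was made with CRISPR-Cas9, with guides against the first exon of TXNDC9 in the lentiviral vector lentiCRISPRv2, and for a protein blot the study describes knockout cells sorted for infection. The sources do not say whether the sequenced cells were handled in that way or came from 1 clone, nor whether the replicates came from separate cultures, so the p-values measure only the spread between these libraries, which may be technical. TXNDC9, a thioredoxin-like protein that binds the TCP1 chaperonin, was knocked out to ask what part it has in liver cancer progression.

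Mitosis begins when cyclin-dependent kinase 1, bound to B-type cyclins and switched on by CDC25 phosphatases, phosphorylates its many substrates. Kinetochores built on centromeric chromatin then attach the chromosomes to spindle microtubules, while the checkpoint kinases and the chromosomal passenger complex hold back the anaphase promoting complex until attachment is complete. That ubiquitin ligase, with its cofactor CDC20, destroys securin and cyclin B, and cytokinesis follows. Most of these mRNAs rise in G2 and M phase, under the transcription factors FOXM1 and B-MYB and the DREAM complex, so in a culture they are carried mostly by the cells in those phases. In bulk RNA, fewer cells in G2 or M phase and less of an mRNA per cell cannot be told apart.

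The labelled cell type was checked against markers before the results. None of the 10 hepatocyte genes, among them ALB (albumin), APOA1, TTR and HNF4A, exceeded 1 FPKM in any library, where FPKM stands for fragments scaled to transcript length and library size. The highest value was 0.449 FPKM for AFP (alpha-fetoprotein) in wild-type replicate 2, ALB was listed at 0 in 3 of the 4 libraries, and the summed level of the list lay between 0.0479 and 0.733 FPKM. Defining genes of hepatocytes were thus absent or near 0 in libraries labelled HepG2, in both groups. Of 10 genes of blood, stromal and endothelial cells, 4 exceeded 1 FPKM in some library, and the summed level of the list was 49.3 to 53.01 FPKM in wild-type and 36.98 to 41.7 FPKM in knockout libraries, most of it COL1A1 and COL3A1, while CD3E was listed at 0 in all 4. PDGFRB and CDH5 went from at most 1.08 FPKM in the wild-type libraries to at least 2.62 FPKM in the knockout libraries. The more abundant COL3A1 and COL1A1 moved the other way, by log2 fold changes of −0.70 (adjusted p = 0.00503 from limma) and −0.49 (adjusted p = 0.0536). PECAM1 and VWF stayed below 1 FPKM in every library, with overlapping groups. The part of these markers in the results was not tested. TXNDC9 itself was 35.1 and 37.3 FPKM in wild-type cells and 21.9 and 27.6 FPKM in TXNDC9 knockout cells, with a log2 fold change of −0.55 (standard error 0.14, adjusted p = 0.0145). Edits in an exon need not remove an mRNA, so this level does not check the knockout itself. Library sums of FPKM split by group, with 805816 for wild-type replicate 1 and 971102 for wild-type replicate 2. Both knockout sums were lower, at 535973 for replicate 1 and 568280 for replicate 2. FPKM values hold no counts, so the depth is unknown.

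The largest changes among the 40 genes were falls of 5 genes and a rise of 1. Calls were made at an adjusted p under 0.01 (limma, Benjamini-Hochberg adjustment over all 13246 genes with an average above 1 FPKM) and a fold change of at least 2 on the log2(FPKM + 0.1) scale, which understates the change of low genes. By this rule PTTG1, AURKB, UBE2C, CDC20 and PLK1 fell and INCENP rose, which is 5 of 40 genes lower (12.5%) and 1 higher (2.50%). Among all tested genes 15.3% were called lower and 14.2% higher, so the share called lower was near that of all genes and the share called higher was below it. The median log2 fold change was −0.12 over the 40 genes and −0.09 over all tested genes. Leaving out a library leaves 1 in its group, which is assumed to vary like the others, so only log2 fold changes are given here. With each library left out in turn they ran from −1.80 to −1.35 for PTTG1 and −1.63 to −1.30 for AURKB. UBE2C ran from −1.44 to −1.27, CDC20 from −1.40 to −1.19, PLK1 from −1.11 to −1.02 and INCENP from 1.01 to 1.27.

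With no minimum fold change, 10 of the 40 genes (25%) were lower at an adjusted p under 0.01 from limma and 5 (12.5%) were higher, against 27.1% and 23.7% of all tested genes. The other 25 genes did not pass the test. The groups did not overlap for 20 genes with the knockout lower (50%) and 11 genes with it higher (27.5%), where all tested genes gave 45.9% and 40.1%. Rescaling every library to the same sum (TPM) shifted the median log2 fold change of all genes from −0.09 to 0.59, and then 0 of the 40 genes were called lower by limma and 10 higher (25%), against 3.37% and 33.1% of all tested genes. Of the 5 genes called lower, PTTG1, AURKB, UBE2C and CDC20 then had log2 fold changes of −0.89, −0.79, −0.67 and −0.61, all still at an adjusted p under 0.01, and PLK1 had −0.38 (adjusted p = 0.0218). INCENP stood at 1.82. With no minimum fold on the TPM scale, 4 of the 40 genes were lower and 21 higher, against 10.4% and 44.7% of all tested genes. The signs of 16 other genes reversed, CCNB2, SPC25 and KIF2C among those that passed the test as lower, so a direction below is that of the deposited FPKM. At an unadjusted p under 0.05 from limma with TPM, 0 of the 40 genes were at least 2-fold lower and 11 at least 2-fold higher. The share of all genes by that looser rule was not taken, and the stricter one already called 33.1% of all tested genes higher.

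**Figure D1:**
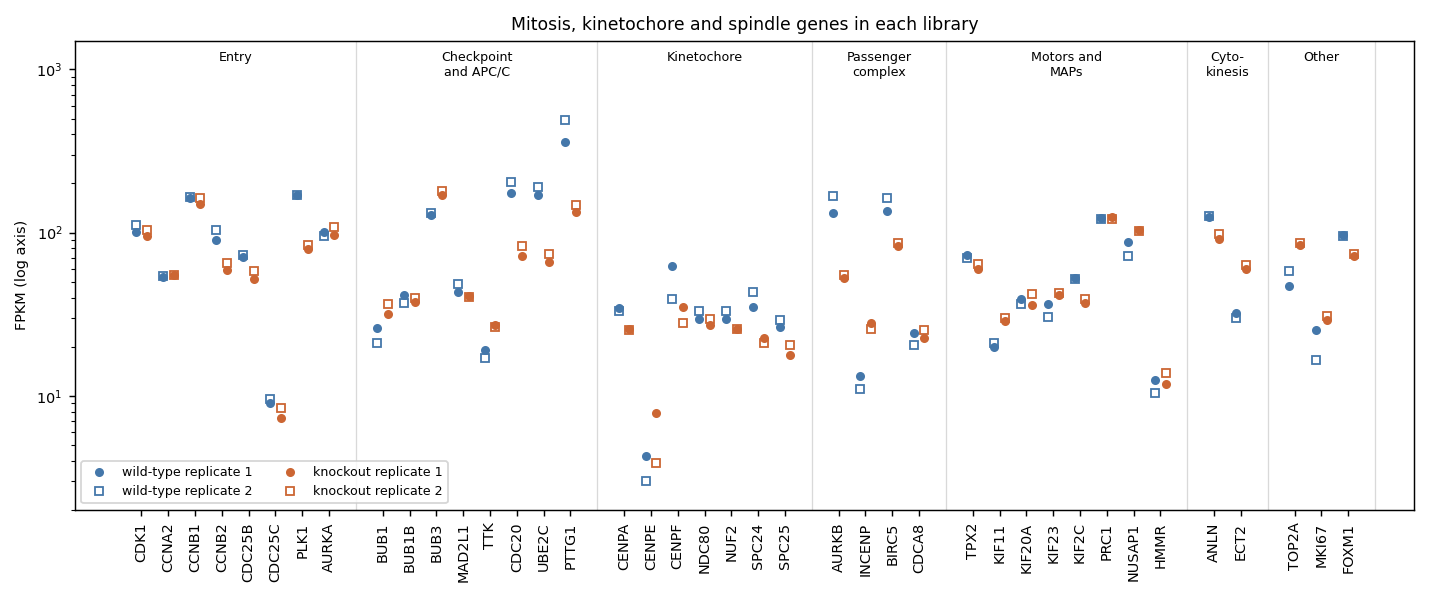
FPKM (log axis) of each of the 40 genes in the 4 libraries, grouped by role (APC/C, anaphase promoting complex; MAPs, microtubule-associated proteins), with filled circles for replicate 1 and open squares for replicate 2. PLK1, CDC20, UBE2C, PTTG1 and AURKB show the widest gaps downward from wild-type to knockout, INCENP and ECT2 the widest upward, and most other genes have all 4 points close together.

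PTTG1, UBE2C and CDC20, which serve or are destroyed by the anaphase promoting complex, fell together. PTTG1, or securin, the inhibitor that holds separase in check until anaphase, was 361 and 492 FPKM in wild-type cells and 135 and 149 FPKM in TXNDC9 knockout cells, with a log2 fold change of −1.57 (standard error 0.18, adjusted p = 9.97e-04), a 2.98-fold fall. The near-identical copies PTTG2 and PTTG3P were listed at 0 in all 4 libraries. UBE2C, at chr20:45812576-45816957 on the plus strand of hg38, the ubiquitin-conjugating enzyme that works with this ligase, was 169 and 189.7 FPKM in wild-type cells and 66.3 and 74.1 FPKM in TXNDC9 knockout cells, a log2 fold change of −1.35 (standard error 0.12, adjusted p = 6.20e-04). CDC20, its activator in early mitosis, was 176 and 203 FPKM in wild-type cells and 71.9 and 82.7 FPKM in TXNDC9 knockout cells, a log2 fold change of −1.29 (standard error 0.13, adjusted p = 7.94e-04). In each of the 3 genes the knockout values did not overlap the wild-type values, and the gap between the groups was wider than that between replicates. The ratio of UBE2C to CDC20 within a library was nearly the same in all 4 libraries, 0.962 and 0.932 in the wild-type libraries and 0.922 and 0.896 in the knockout libraries.

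PLK1 and AURKB, the kinases of mitotic entry and of the chromosomal passenger complex, fell as well. AURKB was 133 and 167 FPKM in wild-type cells and 52.7 and 55.1 FPKM in TXNDC9 knockout cells, a log2 fold change of −1.47 (standard error 0.14, adjusted p = 6.87e-04) or a 2.76-fold fall. PLK1 was 171 and 169.8 FPKM in wild-type cells and 79.2 and 83.9 FPKM in TXNDC9 knockout cells, a log2 fold change of −1.06 (standard error 0.11, adjusted p = 7.31e-04), so that the 2-fold threshold was only just passed, and part of its exons overlaps ERN2 and another gene on the opposite strand. AURKB overlaps no other annotated exon. INCENP, the scaffold that anchors Aurora B and activates it, rose, and was 13.2 and 11.003 FPKM in wild-type cells and 27.8 and 25.6 FPKM in TXNDC9 knockout cells, a log2 fold change of 1.14 (standard error 0.13, adjusted p = 9.15e-04) or a 2.21-fold rise. In none of the 3 genes did the groups overlap. After centring each library on its median, the log2 fold change of INCENP was just under 1 and missed the 2-fold threshold.

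The promoters of these genes share sequence features that the choice of genes did not use, and those of 5 of the 6 called genes are shown here to make this visible. The promoter table of RefSeq (GRCh38.p14, 250 bases before to 50 after the start) held 33 of the 40 genes, UBE2C not among them. The CHR element, searched as TTTGAA on both strands, is the site bound by the DREAM and MuvB complexes, and the CCAAT box, searched as CCAAT on both strands, is bound by NF-Y. A CHR match stood in 22 of the 33 promoters (66.7%) against 9.41% of 9007 promoters of tested genes and 15.2% of all 35116 promoters. A CCAAT match stood in 25 (75.8%), against 37.2% and 34.6%, and 2 or more in 17 (51.5%), against 13.9% and 10.8%. The windows below hold the 120 bases ahead of the start of transcription and the 30 that follow it, 5′ to 3′ along the gene, with CHR and CCAAT matches on either strand in capitals (neighbouring matches run together).
PTTG1: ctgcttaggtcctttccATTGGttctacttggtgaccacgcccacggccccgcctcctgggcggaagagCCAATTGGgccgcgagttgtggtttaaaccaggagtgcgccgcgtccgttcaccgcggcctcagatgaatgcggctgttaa
CDC20: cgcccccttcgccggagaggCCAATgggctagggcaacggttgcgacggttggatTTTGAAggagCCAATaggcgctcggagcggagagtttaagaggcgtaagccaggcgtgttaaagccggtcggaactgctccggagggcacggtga
PLK1: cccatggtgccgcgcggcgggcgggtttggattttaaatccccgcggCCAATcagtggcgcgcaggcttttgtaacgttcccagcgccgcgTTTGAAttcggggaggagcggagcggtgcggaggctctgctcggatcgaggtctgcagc
AURKB: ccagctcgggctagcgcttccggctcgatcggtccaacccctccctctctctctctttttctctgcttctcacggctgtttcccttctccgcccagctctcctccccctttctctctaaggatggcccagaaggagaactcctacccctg
INCENP: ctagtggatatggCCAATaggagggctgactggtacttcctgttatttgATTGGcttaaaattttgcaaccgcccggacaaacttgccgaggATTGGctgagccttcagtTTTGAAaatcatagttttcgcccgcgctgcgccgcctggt
They lie at chr5:160421735-160421884, plus strand, for PTTG1, at chr1:43358861-43359010, plus strand, for CDC20, at chr16:23678769-23678918, plus strand, for PLK1, at chr17:8210196-8210345, minus strand, for AURKB, and at chr11:62123891-62124040, plus strand, for INCENP. CDC20, which fell, and INCENP, which rose, both carry a CHR match and at least 2 CCAAT matches in these windows. The AURKB window holds neither, but the start used for it lies inside the gene as GENCODE annotates it, up to chr17:8210600. The start used for PLK1 also lies inside its annotated gene, which begins at chr16:23677656. So do the starts used for KIF11, CENPA and SPC25, among others counted above. These windows, with or without matches, therefore need not be the promoters in use. The longer window searched for AURKB held 1 CCAAT match. The 22 genes with a CHR match had a median log2 fold change of −0.06 and the 11 without one −0.24, and 3 and 2 of them were called. A match of letters is a description, not a bound site.

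Among the regulators of mitotic entry, the kinase and its main cyclins showed differences too small to pass the test. CDK1, the kinase that drives entry, was 101 and 112 FPKM in wild-type cells and 95.5 and 104 FPKM in TXNDC9 knockout cells, a log2 fold change of −0.10 (standard error 0.12, adjusted p = 0.479). CCNB1, cyclin B1, was 163 and 166 FPKM in wild-type cells and 149 and 163 FPKM in TXNDC9 knockout cells, a log2 fold change of −0.08 (standard error 0.11, adjusted p = 0.565). CCNA2, cyclin A2, was 53.6 and 54.1 FPKM against 54.9 and 54.9 FPKM (here and below, wild-type libraries first), a log2 fold change of 0.03 (adjusted p = 0.811). None of these passed the test, and in CDK1 the groups overlapped. CCNB2, cyclin B2, was lower, at 90.7 and 104 FPKM against 59.3 and 65.3 FPKM, with a log2 fold change of −0.64 (adjusted p = 0.0052), and the ratio of CCNB2 to CCNB1, a pair chosen after the values were seen, was 0.557 and 0.626 in the wild-type libraries and 0.399 and 0.401 in the knockout libraries. The phosphatase CDC25B, which activates CDK1, was 70.7 and 72.5 FPKM against 52.003 and 58.2 FPKM, a log2 fold change of −0.38 (adjusted p = 0.0236). Its relative CDC25C was 9.003 and 9.60 FPKM against 7.30 and 8.46 FPKM, a log2 fold change of −0.24 (adjusted p = 0.133). In both the knockout values sat below the wild-type values without passing the test. AURKA, the centrosomal Aurora kinase, was 101 and 95.4 FPKM in wild-type cells and 97.3 and 108 FPKM in TXNDC9 knockout cells, with overlapping groups and a log2 fold change of 0.07 (adjusted p = 0.631), while its relative AURKB fell.

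Of the checkpoint genes proper, TTK was higher and BUB1, BUB1B, BUB3 and MAD2L1 did not pass the test. BUB1B (BUBR1), which binds and inhibits CDC20, was 41.3 and 37.1 FPKM in wild-type cells and 37.5 and 39.5 FPKM in TXNDC9 knockout cells, with overlapping groups and a log2 fold change of −0.02 (adjusted p = 0.854). TTK (MPS1), the kinase at the head of the checkpoint, was higher in the knockout libraries, at 19.2 and 16.9 FPKM against 27.1 and 26.5 FPKM, a log2 fold change of 0.57 (adjusted p = 0.00532) that passed the test at less than 2-fold. BUB1, which recruits the other checkpoint proteins, was 25.96 and 20.9 FPKM against 31.9 and 36.5 FPKM, a log2 fold change of 0.55 (adjusted p = 0.0172). BUB3, its partner, was 128 and 132 FPKM against 169.6 and 179 FPKM, a log2 fold change of 0.42 (adjusted p = 0.0168). For both, the knockout values lay above both wild-type values but did not pass 0.01, and after a correction for transcript length and GC content, described further on, BUB3 was lower instead, at −0.50 (adjusted p = 0.00344). MAD2L1 (MAD2), the inhibitor that closes on CDC20, was 43.5 and 48.2 FPKM against 41.1 and 40.6 FPKM, a log2 fold change of −0.17 (adjusted p = 0.205). The ratio of CDC20 to BUB1B was 4.26 and 5.49 in the wild-type libraries and 1.92 and 2.09 in the knockout libraries. The log2 change of that ratio was −1.27 from the deposited FPKM and −0.21 after the correction.

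Of the 7 centromere and kinetochore genes, SPC24 and SPC25 were lower at an adjusted p under 0.01 and none was called at 2-fold. These proteins form the centromere-facing end of the NDC80 complex, and NDC80 and NUF2 the end that binds microtubules. SPC24 was 34.9 and 43.2 FPKM in wild-type cells and 22.7 and 20.99 FPKM in TXNDC9 knockout cells, a log2 fold change of −0.83 (standard error 0.13, adjusted p = 0.00297). SPC25 was 26.5 and 29.3 FPKM against 17.9 and 20.5 FPKM, a log2 fold change of −0.54 (adjusted p = 0.00867). NDC80 was 29.6 and 32.95 FPKM against 26.97 and 29.6 FPKM, a log2 fold change of −0.14 (adjusted p = 0.295). NUF2 was 29.4 and 33.2 FPKM against 25.6 and 25.8 FPKM, a log2 fold change of −0.28 (adjusted p = 0.0614). After the correction for length and GC content, SPC24 stood at −0.51 (adjusted p = 0.0143) and SPC25 at −0.35 (adjusted p = 0.0196), no longer past the test. All 4 subunits had lower means in the knockout libraries, but NDC80 and NUF2 did not pass the test and the NDC80 groups just overlapped. CENPA, the histone H3 variant that marks centromeres, was 34.3 and 33.3 FPKM against 25.8 and 25.3 FPKM, a log2 fold change of −0.40 (adjusted p = 0.0119). CENPE, a kinetochore motor and the least abundant of the 40 genes, was 4.26 and 3.02 FPKM in wild-type cells and 7.86 and 3.88 FPKM in TXNDC9 knockout cells, with a log2 fold change of 0.61 (adjusted p = 0.172), and its knockout replicates differed more from each other than the groups did. CENPF, a large kinetochore and nuclear matrix protein, was 62.6 and 39.4 FPKM in wild-type cells and 35.1 and 27.9 FPKM in TXNDC9 knockout cells, a log2 fold change of −0.67 (adjusted p = 0.05) with a wide gap between the wild-type replicates.

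Of the 4 subunits of the chromosomal passenger complex, AURKB and BIRC5 were lower, INCENP was higher and CDCA8 did not pass the test. BIRC5, or survivin, which targets the complex to centromeres, was 136 and 163 FPKM in wild-type cells and 82.7 and 86.2 FPKM in TXNDC9 knockout cells, a log2 fold change of −0.82 (standard error 0.13, adjusted p = 0.00265), a fall that passed the test at 1.76-fold. CDCA8, or borealin, was 24.1 and 20.6 FPKM against 22.6 and 25.4 FPKM with overlapping groups, a log2 fold change of 0.10 (adjusted p = 0.492). The ratio of AURKB to INCENP was 10.1 and 15.2 in the wild-type libraries and 1.89 and 2.15 in the knockout libraries, and that of BIRC5 to INCENP was 10.4 and 14.8 in the wild-type libraries and 2.97 and 3.36 in the knockout libraries. In FPKM, AURKB therefore stood above INCENP in every library, by much less in the knockout libraries. Their transcripts differ in length (1243 and 4114 nt), and FPKM differences between libraries varied with length, as described below. The ratio is thus no direct measure of relative mRNA amounts. The log2 change of the AURKB to INCENP ratio was −2.62, and −2.07 after the correction for length and GC content. With 2 libraries a group, the smallest two-sided p of an exact permutation test is 0.333, so no p is given for these ratios, which were chosen after the values were seen.

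Spindle motors and microtubule-associated proteins showed small changes in both directions. KIF11 (Eg5), the motor that separates the spindle poles, was higher, at 19.9 and 21.1 FPKM against 28.8 and 29.9 FPKM, a log2 fold change of 0.52 (adjusted p = 0.00529). KIF2C (MCAK), a microtubule depolymerase at centromeres, was lower, at 52.97 and 52.3 FPKM against 37.04 and 39.2 FPKM, a log2 fold change of −0.46 (adjusted p = 0.00774). These were the only 2 of the 8 genes of this group to pass the test. PRC1, which bundles the midzone, was 124 and 121 FPKM in wild-type cells and 124 and 121 FPKM in TXNDC9 knockout cells, the change nearest to 0 of all 40 genes (log2 fold change 0.01), and its exons overlap those of other annotated genes, so its value is uncertain. KIF20A, the midzone motor that carries the passenger complex, was 39.1 and 36.5 FPKM against 35.998 and 41.9 FPKM, a log2 fold change of 0.04 (adjusted p = 0.783) with overlapping groups. KIF23, which forms centralspindlin, and NUSAP1, which bundles microtubules near chromatin, had knockout values above both wild-type values without passing the test. KIF23 was 36.3 and 30.2 FPKM against 41.5 and 42.8 FPKM, a log2 fold change of 0.35 (adjusted p = 0.0476). NUSAP1 was 87.8 and 72.03 FPKM against 103 and 103 FPKM, a log2 fold change of 0.37 (adjusted p = 0.0469), and its exons overlap those of other annotated genes. TPX2, the spindle assembly factor that activates Aurora A, was 73.04 and 69.99 FPKM against 59.9 and 64.5 FPKM, a log2 fold change of −0.20 (adjusted p = 0.133). HMMR, a spindle pole protein, was 12.5 and 10.4 FPKM against 11.8 and 13.8 FPKM, a log2 fold change of 0.16 (adjusted p = 0.341) with overlapping groups.

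ECT2, the exchange factor that activates RhoA at the cleavage furrow, came next to INCENP among the rises. It was 32.1 and 29.8 FPKM in wild-type cells and 59.7 and 63.1 FPKM in TXNDC9 knockout cells, a log2 fold change of 0.99 (standard error 0.10, adjusted p = 7.93e-04), just short of the 2-fold threshold. With each library left out in turn its log2 fold change ran from 0.93 to 1.04. ANLN (anillin), the scaffold of the contractile ring, was 124 and 126 FPKM in wild-type cells and 91.7 and 97.98 FPKM in TXNDC9 knockout cells, a log2 fold change of −0.40 (adjusted p = 0.018). The ratio of ECT2 to ANLN was 0.259 and 0.237 in the wild-type libraries and 0.651 and 0.644 in the knockout libraries. TOP2A, the topoisomerase that untangles sister chromatids, was higher, at 46.8 and 58.2 FPKM against 84.4 and 85.8 FPKM, a log2 fold change of 0.70 (standard error 0.13, adjusted p = 0.00536). MKI67 (Ki-67), the proliferation marker that coats mitotic chromosomes, was 25.3 and 16.6 FPKM in wild-type cells and 29.04 and 31.02 FPKM in TXNDC9 knockout cells, above both wild-type values, with a log2 fold change of 0.55 (adjusted p = 0.0563) that did not pass the test. FOXM1, the transcription factor of many G2 and M phase genes, was 97.3 and 95.9 FPKM in wild-type cells and 72.03 and 74.2 FPKM in TXNDC9 knockout cells, a log2 fold change of −0.40 (adjusted p = 0.0145), below both wild-type values and short of the threshold. Its transcripts overlap those of ITFG2 on the opposite strand, and the sources do not state whether reads were counted by strand. In all, the exons of 15 of the 40 genes overlap those of another annotated gene, among them PLK1, PRC1, NUSAP1 and FOXM1.

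**Figure D2:**
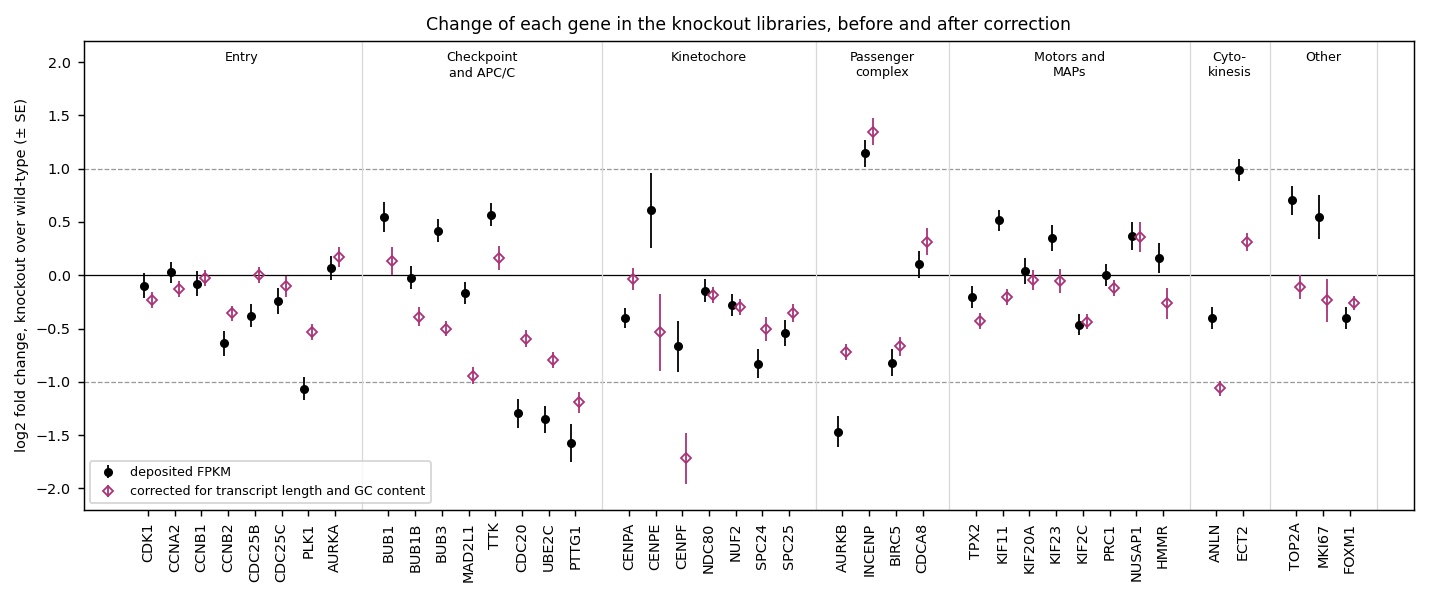
Log2 fold change of each gene, knockout over wild-type (vertical axis, with standard errors from limma), from the deposited FPKM (black circles) and after a correction for transcript length and GC content (open diamonds), with dashed lines at 2-fold. PTTG1 lies beyond the lower line and INCENP beyond the upper line in both, AURKB, UBE2C, CDC20 and PLK1 move inside it, and CENPF and ANLN move beyond it.

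Short transcripts tended to be lower in the knockout libraries and long ones higher. Over the 40 genes, which share the same libraries, the log2 fold change and the length of the canonical transcript (GENCODE release 44) had a Spearman correlation of 0.616, and over 13112 tested genes it was 0.495. With GC content the correlations were −0.456 and −0.462. PTTG1 (715 nt) and UBE2C (777 nt) have the shortest transcripts of the set, and AURKB (1243 nt) comes next. Among all tested genes of up to 1000 nt the median log2 fold change was −0.84, from 1000 to 2000 nt it was −0.66, and above 6000 nt it was 0.81. The 6 genes of the set between 4000 and 6000 nt ranged from −0.40 (ANLN) to 1.14 (INCENP), around a median of 0.43 for all tested genes of that length. Replicates of 1 group differed along length as well. The wild-type libraries had a correlation of −0.527 between the log2 ratio of replicate 2 to replicate 1 and length over the 40 genes and −0.325 over all tested genes. For the knockout replicates the correlations were −0.370 and −0.0625. PTTG1, AURKB and BIRC5 were higher in wild-type replicate 2, and CENPF and MKI67 in replicate 1.

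**Figure D3:**
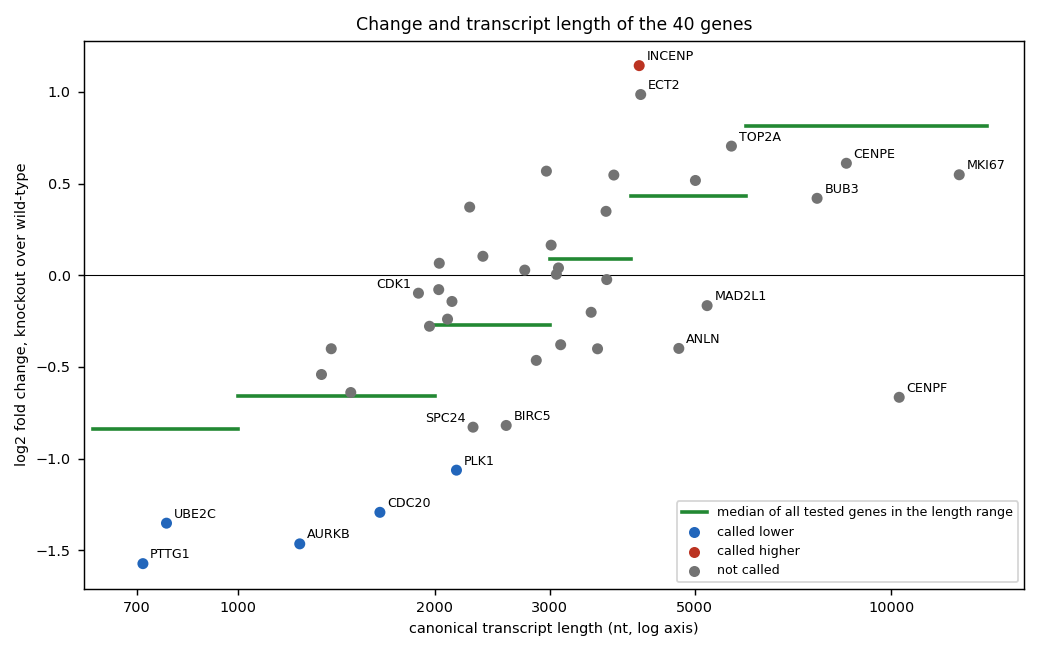
Log2 fold change (knockout over wild-type) of the 40 genes against the length of their canonical transcript (log axis), coloured by call, with green bars for the median of all tested genes in each range of length. The 5 genes called lower have transcripts of 715 to 2160 nt and lie below the green bars, INCENP lies above its bar, and CENPF, ANLN and MAD2L1 lie below theirs without being called.

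When each library was corrected by a loess curve for transcript length and GC content, PTTG1, CENPF and ANLN were called lower and INCENP higher, against 7.39% and 6.41% of all genes. PTTG1 stood at −1.19 (standard error 0.10, adjusted p = 0.0013) and INCENP at 1.35 (standard error 0.13, adjusted p = 0.0015). AURKB, UBE2C, CDC20 and PLK1 remained lower at an adjusted p under 0.01 from limma, but at less than 2-fold: −0.72 (adjusted p = 0.00181), −0.79 (adjusted p = 0.00155), −0.60 (adjusted p = 0.00327) and −0.53 (adjusted p = 0.00406) on the log2 scale. CENPF moved to −1.72 (standard error 0.24, adjusted p = 0.00365) and ANLN to −1.06 (standard error 0.07, adjusted p = 0.00113), and MAD2L1, at −0.94 (adjusted p = 0.00137), came close to 2-fold lower. BIRC5 and KIF2C also remained lower at that threshold, BUB3 and TPX2 came to pass it as lower, and CCNB2, at −0.35 (adjusted p = 0.0105), SPC24 and SPC25 no longer did. The rises of TTK, KIF11, ECT2 and TOP2A no longer passed the test, and TOP2A changed sign to −0.11 (adjusted p = 0.45), KIF11 to −0.20 (adjusted p = 0.073). With no minimum fold, 12 of the 40 genes were lower and 1 higher after the correction, where all genes gave 19.7% and 13.3%, and the median was −0.25 against −0.05 for all genes. CENPF, at 10290 nt, is longer than all others of the set but MKI67. The correction used the canonical transcript of each gene, 5227 nt for MAD2L1 and 7703 nt for BUB3. Which transcripts the cells expressed was not tested, so the corrected values rest on that choice.

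The other genes of mitosis were read from 7 lists written by function, though with earlier results of these data known. Of 153 tested genes, 14 (9.15%) were called lower and 26 (16.99%) higher, against 15.3% and 14.2% of all tested genes. Their median log2 fold change was 0.11. After the correction for length and GC content, 15 were lower and 2 higher, against 7.39% and 6.41% of all genes, and the median was −0.14. With DNA replication and G1 genes added, 21 of 214 genes (9.81%) were lower and 28 (13.1%) higher. On the TPM scale these counts were 5 and 86, against 3.37% and 33.1% of all tested genes. Among other centromere and kinetochore genes 4 of 31 were lower (12.9%) and 2 higher (6.45%). PMF1, a subunit of the MIS12 complex that shares sequence with a read-through gene, fell from 177 ± 31.1 to 61.1 ± 3.70 FPKM (SD, n = 2), and CENPI, of the inner kinetochore, rose from 5.15 ± 0.0718 to 13.9 ± 1.17 FPKM (SD, n = 2). The anaphase promoting complex, the ligase that CDC20 and UBE2C serve, had 3 of 17 genes lower (17.6%) and 2 higher (11.8%), with a median of −0.43. Its small subunits ANAPC15 and CDC26 had the largest changes, with log2 fold changes of −1.76 (adjusted p = 0.00128) and −1.54 (adjusted p = 0.00116), and ANAPC15 overlaps other annotated genes. Both are encoded by transcripts under 1000 nt (801 and 871 nt).

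Cohesin and condensin, the ring complexes that hold and compact chromatids, had 4 of 20 genes called higher (20%) and 0 lower. Their median was 0.72 and their median transcript 5979 nt. For this list and those that follow, all tested genes gave 15.3% lower and 14.2% higher. After the correction all genes gave 7.39% and 6.41%. SMC1A and STAG2, both cohesin subunits, had log2 fold changes of 1.84 (adjusted p = 0.00108) and 1.62 (adjusted p = 4.88e-04), and both overlap other annotated genes. After the correction for length and GC content 2 genes of the list were called lower, and its median was −0.06. Other spindle and cytokinesis genes had 3 of 32 lower (9.38%) and 5 higher (15.6%). They were led by KIF14, a midbody motor, at 2.44 (standard error 0.21, adjusted p = 5.74e-04) and HAUS8, an augmin subunit, at −1.73 (standard error 0.17, adjusted p = 6.97e-04). HAUS8 overlaps another annotated gene. KIF14 went from 2.81 and 1.88 to 12.1 and 13.7 FPKM and, corrected, stood at 1.46 (adjusted p = 0.00387). The centrosome list had 1 of 18 lower (5.56%) and 6 higher (33.3%). CCP110 and NEDD1 had log2 fold changes of 1.57 (adjusted p = 5.38e-04) and 1.14 (adjusted p = 0.00117). Corrected, 2 genes of that list were lower, its median was −0.03, and CCP110 stood at 0.77 (adjusted p = 0.00426) and NEDD1 at 0.46 (adjusted p = 0.0402), neither called. Other regulators of mitotic entry and exit had 2 of 16 lower (12.5%) and 1 higher (6.25%). MAD1L1, the partner of MAD2, and PKMYT1, a kinase that restrains CDK1, fell, with log2 fold changes of −1.94 (adjusted p = 0.00123) and −1.51 (adjusted p = 5.74e-04), and both overlap other annotated genes.

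Among the transcriptional regulators of this programme, 1 of 19 genes of the DREAM, MuvB and E2F list was lower (5.26%) and 6 higher (31.6%). All tested genes gave 15.3% and 14.2%. The gene called lower was MYBL2 (B-MYB), at 86.3 and 92.2 FPKM against 37.3 and 41.7 FPKM. Its log2 fold change was −1.18 (adjusted p = 6.67e-04 from limma). RBL2, the p130 pocket protein of the repressive DREAM complex, was 6.003 and 4.19 FPKM against 18.2 and 18.4 FPKM, a log2 fold change of 1.85 (adjusted p = 7.13e-04). Its exons overlap those of other genes on the opposite strand. E2F7, a repressor of E2F targets, was 2.98 and 2.49 FPKM against 8.31 and 9.59 FPKM, a log2 fold change of 1.68 (adjusted p = 6.35e-04). Corrected for length and GC content, RBL2 and E2F7 stood at 1.26 (adjusted p = 0.00407) and 0.99 (adjusted p = 0.00414). MYBL2 stood at −0.64 (adjusted p = 0.0025), lower without being called. After the correction 1 gene of the list was called higher and 0 lower, where all genes gave 6.41% and 7.39%.

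Genes of the preceding phases are given beside the mitosis genes for scale. Of 46 DNA replication genes, 5 (10.9%) were lower and 1 (2.17%) higher, and their median was −0.19. Of 15 tested G1 cyclins, kinases and inhibitors 2 were lower (13.3%) and 1 higher (6.67%), around a median of −0.20. All tested genes gave 15.3% lower and 14.2% higher. POLD1, the catalytic subunit of DNA polymerase delta, had a log2 fold change of −1.63 (adjusted p = 0.0015) and GINS4, of the replicative helicase, one of 2.06 (adjusted p = 0.00108), each in a gene that overlaps another. CDKN1C (p57), an inhibitor of cyclin-dependent kinases, fell, with a log2 fold change of −1.70 (adjusted p = 5.12e-04), and RB1, the retinoblastoma protein, rose, with 1.70 (adjusted p = 5.63e-04). Of the genes named from the lists, ANAPC15, CDC26, KIF14, HAUS8, MAD1L1, RBL2, POLD1 and GINS4 were also called after the correction, in the same direction. PMF1, CENPI, SMC1A, STAG2, CCP110, NEDD1, PKMYT1, MYBL2, E2F7, CDKN1C and RB1 were not. Differences between these lists and the mitosis genes were not tested.

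**Figure D4:**
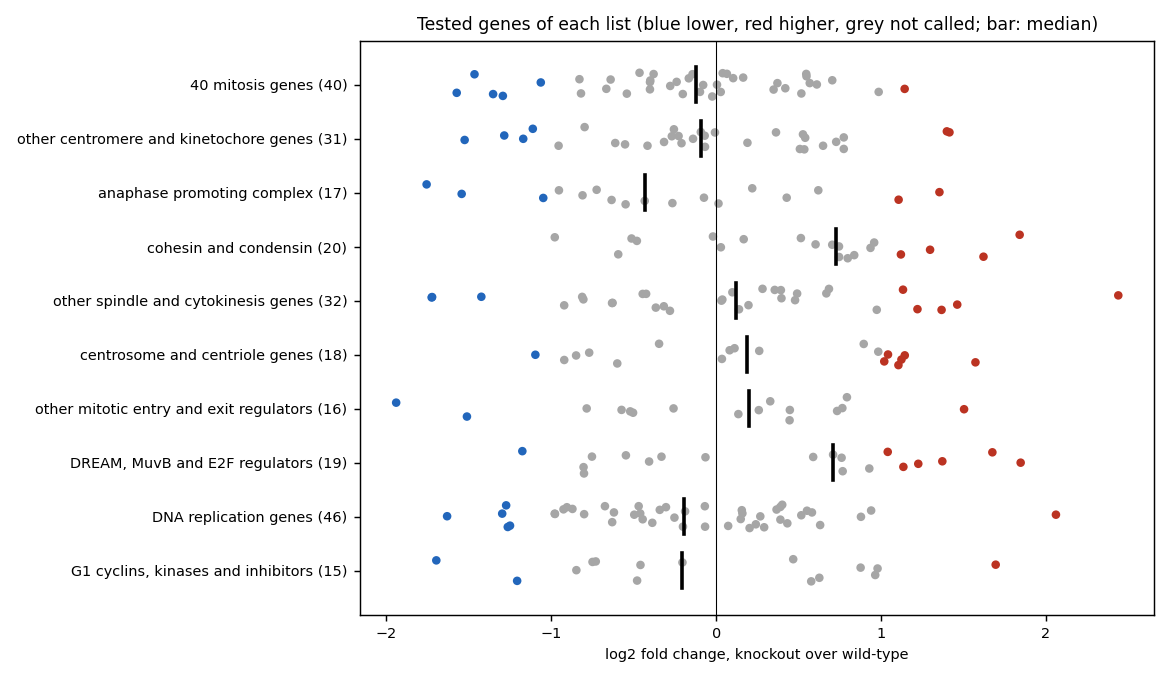
Log2 fold change (knockout over wild-type) of every tested gene of the 40 mitosis genes and of the other lists, one row per list with the number tested in parentheses, blue for called lower, red for called higher, grey for not called, and a black bar at the median. The medians run from −0.43 for the anaphase promoting complex to 0.72 for cohesin and condensin, with genes called in both directions in most lists.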

How the data were processed

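Per the study's methods and processing notes, the authors mapped reads to hg38 with TopHat2 and an Ensembl annotation, and Cuffdiff of Cufflinks gave one FPKM value per gene and library; strand use and versions are not given in the sources used here. In the deposited table each gene identifier stood 4 times and out of step with the values, so identifiers were put back in order and genes were matched by the symbol on the line of values. Columns with the authors' own fold changes, p-values and q-values were not used. The 4 libraries form 2 groups of 2. Deposited FPKM were tested as log2(FPKM + 0.1) with limma 3.58.1 (R 4.3.3, trend) over the 13246 genes averaging above 1 FPKM, with Benjamini-Hochberg adjustment, after a test on simulated data. Genes were called at an adjusted p under 0.01 and at least 2-fold. Transcript length, GC content and gene overlaps came from GENCODE release 44 (hg38), and the correction for both fitted a loess curve (span 0.3) in each library. Sequences came from RefSeq promoters (GRCh38.p14).

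The 40 genes, the other lists and the tests were chosen with earlier results of these data known. Values are printed for each of the 40 genes, and, in each other list, for the 2 called genes with the largest change whose groups did not overlap. MYBL2 was added as the gene called lower in its list. The pairs used for ratios were chosen after the values were seen. Same-numbered libraries did not deviate together (correlation −0.0904), so replicate numbers were not taken as pairs. Alternatives were other pseudocounts, filters, scalings, thresholds, a replicate block, the length and GC correction, and leaving out each library. FPKM hold no depth, so no counting error is given.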

Additional observations from a re-analysis of the deposited data

How the results depend on the processing

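The reported calls are 5 of the 40 genes lower and 1 higher, 2021 and 1885 of all genes, and 21 and 28 of the genes of the other lists. Rescaling to TPM gave 0 of the 40 genes lower and 10 higher, 447 and 4380 of all genes, and 5 and 86 of the genes of the other lists, with a median log2 fold change of 0.56 over the 40 genes. Centring on the library median gave 5 lower and 0 higher among the 40 genes, 18 higher in the other lists, and a median of −0.26. The length and GC correction gave 3 of the 40 genes lower and 1 higher, 969 and 841 of all genes, and 18 and 4 of the genes of the other lists, with a median of −0.25. With the replicate block as well it gave 3 and 1, 975 and 841, and 18 and 5, with a median of −0.25. With no minimum fold change there were 10 of the 40 genes lower and 5 higher, 3590 and 3142 of all genes, and 59 and 68 of the genes of the other lists. With a filter at an average above 5 FPKM, 1220 of all genes were higher. Leaving out each library in turn gave 0 to 5 of the 40 genes lower and 0 to 2 higher, 0 to 2633 and 0 to 2136 of all genes, 0 to 30 and 0 to 35 of the other lists, and medians of −0.17 to −0.057. The count of 0 arose in limma without either knockout library, where 5 of the 40 genes were at least 2-fold lower and 2 at least 2-fold higher at an unadjusted p under 0.05. The replicate block alone, with numbers that do not pair the libraries, gave 5 and 1 of the 40 genes. The cause of these shifts was not tested. FPKM carry no counts, so what depth limits is unknown.

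Some signs reversed on the log2 scale. Rescaling to TPM gave CDK1 0.58, CCNB1 0.60, CCNB2 0.040, CDC25B 0.30, CDC25C 0.43, BUB1B 0.66, MAD2L1 0.51, CENPA 0.28, CENPF 0.013, NDC80 0.54, NUF2 0.40, SPC25 0.14, TPX2 0.48, KIF2C 0.21, ANLN 0.28 and FOXM1 0.28. Centring gave CCNA2 −0.12, AURKA −0.078, CDCA8 −0.040, KIF20A −0.10 and PRC1 −0.14. The length and GC correction, with or without the replicate block, gave CCNA2 −0.13, CDC25B 0.00036, BUB3 −0.50, CENPE −0.53, KIF11 −0.20, KIF20A −0.045, KIF23 −0.054, PRC1 −0.12, HMMR −0.26, TOP2A −0.11 and MKI67 −0.24. Leaving out each library in turn gave AURKA −0.011 to 0.14, BUB1B −0.10 to 0.054, CDCA8 −0.0094 to 0.22, KIF20A −0.070 to 0.15 and PRC1 −0.012 to 0.022. The signs of 12 genes, PLK1, BUB1, TTK, CDC20, UBE2C, PTTG1, SPC24, AURKB, INCENP, BIRC5, NUSAP1 and ECT2, were the same under all 16 alternatives.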
